A study of Mus musculus with 4 samples.

Results

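The PPAR and RXR receptor genes are the 6 mouse genes Pparg, Ppara, Ppard, Rxra, Rxrb and Rxrg, taken here out of 20923 protein-coding genes because PPARγ, the protein that was immunoprecipitated, is the product of the first of them and binds DNA together with an RXR. They were picked by name, with earlier results of these data known. A region was a stretch of merged peaks of both libraries that overlapped by at least 1 bp, and each region was given to the gene whose curated RefSeq start site (transcription start site, TSS) lay nearest to its centre. By this rule 18 of the 20233 regions fell to the receptor genes. The data are HT-ChIPmentation, a chromatin immunoprecipitation in which sequencing adapters are inserted by a transposase, with an antibody against PPARγ in alveolar macrophages (AMs), the resident macrophages of the airspace. The AMs came from wild-type C57BL/6J mice 9 wk of age, were collected by bronchoalveolar lavage and were sorted by flow cytometry into aliquots of 200k cells, and no deletion or treatment is named for them. The one group with peak lists holds 2 ChIP libraries, library 1 and library 2, and 2 input libraries served the authors as controls. Nothing in the labels says that the libraries came from separate animals, and no library from AMs lacking PPARγ was analysed here.

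PPARs are nuclear receptors that bind fatty acids and their derivatives and act as heterodimers with an RXR, the receptor family that binds 9-cis retinoic acid. The heterodimer recognises a direct repeat of the hexamer AGGTCA with 1 base between the copies, known as DR1. PPARγ is the PPAR on which AM identity and lipid handling depend, PPARα drives fatty acid oxidation in liver and other oxidative tissues, and PPARδ is expressed in most tissues. Of the RXRs, RXRα predominates in myeloid cells, RXRβ is broadly expressed, and RXRγ is found mainly in muscle and brain.

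The sequences at which library 1 peaked in the strongest region of each occupied receptor gene are shown, because they are the stretches on which the later description of motifs rests. Each is the 201 bases centred on the library 1 summit of the gene's strongest region, read from GRCm38.p6 (the same assembly as mm10) on the + strand. The library 2 summits of Pparg region 7 and of the Rxrb region lie outside these windows. Capitals mark letters of GGGTCA, which differs from the PPAR hexamer in its first base, of TTGCNNAA, the pattern bound by C/EBP factors, or of TTCNNNGAA, the pattern bound by STAT factors, whichever strand holds them.
Pparg region 7, chr6:115421750-115421950: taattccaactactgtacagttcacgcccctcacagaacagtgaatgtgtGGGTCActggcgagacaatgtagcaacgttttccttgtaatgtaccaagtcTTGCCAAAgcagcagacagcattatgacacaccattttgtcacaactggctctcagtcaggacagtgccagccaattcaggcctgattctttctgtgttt
Ppard region 1, chr17:28233515-28233715: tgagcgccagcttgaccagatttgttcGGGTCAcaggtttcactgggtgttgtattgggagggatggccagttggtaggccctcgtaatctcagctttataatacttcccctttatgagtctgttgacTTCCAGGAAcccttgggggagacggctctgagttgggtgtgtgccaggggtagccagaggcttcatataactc
Rxra region 2, chr2:27715269-27715469: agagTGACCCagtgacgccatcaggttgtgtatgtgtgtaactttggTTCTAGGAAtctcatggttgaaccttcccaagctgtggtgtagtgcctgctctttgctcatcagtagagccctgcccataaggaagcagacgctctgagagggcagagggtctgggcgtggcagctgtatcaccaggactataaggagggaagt
Rxrb region 1, chr17:34033060-34033260: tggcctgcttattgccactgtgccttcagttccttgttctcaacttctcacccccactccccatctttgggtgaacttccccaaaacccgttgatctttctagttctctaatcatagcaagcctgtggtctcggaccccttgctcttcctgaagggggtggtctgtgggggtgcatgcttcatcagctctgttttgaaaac
The Rxrb window held none of the searched patterns and so has no capitals. Their GC contents were 46.3%, 52.2%, 52.7% and 51.2% for Pparg, Ppard, Rxra and Rxrb, beside a median of 45.3% over the windows of all regions (central 95%, 31.8% to 62.2%).

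Of the 6 receptor genes, 4 were the nearest gene of at least 1 region, namely Pparg with 12, Rxra with 4, and Ppard and Rxrb with 1 each, whereas Ppara and Rxrg had none. Among all protein-coding genes 31.6% had a region (6617 of 20923; 95% Wilson interval, 31.0% to 32.3%). The PPAR genes contributed 2 of 3 and the RXR genes 2 of 3. In the lists taken singly, the same 4 genes were the nearest gene of 128 library 1 peak summits and 30 library 2 peak summits, beside 60.6% of all genes having a library 1 summit and 34.9% a library 2 summit. Ppara and Rxrg had no peak in either library. The difference in the number of peaks between the libraries, 83787 in library 1 and 28535 in library 2, applies to every count given here.

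**Figure D1:**
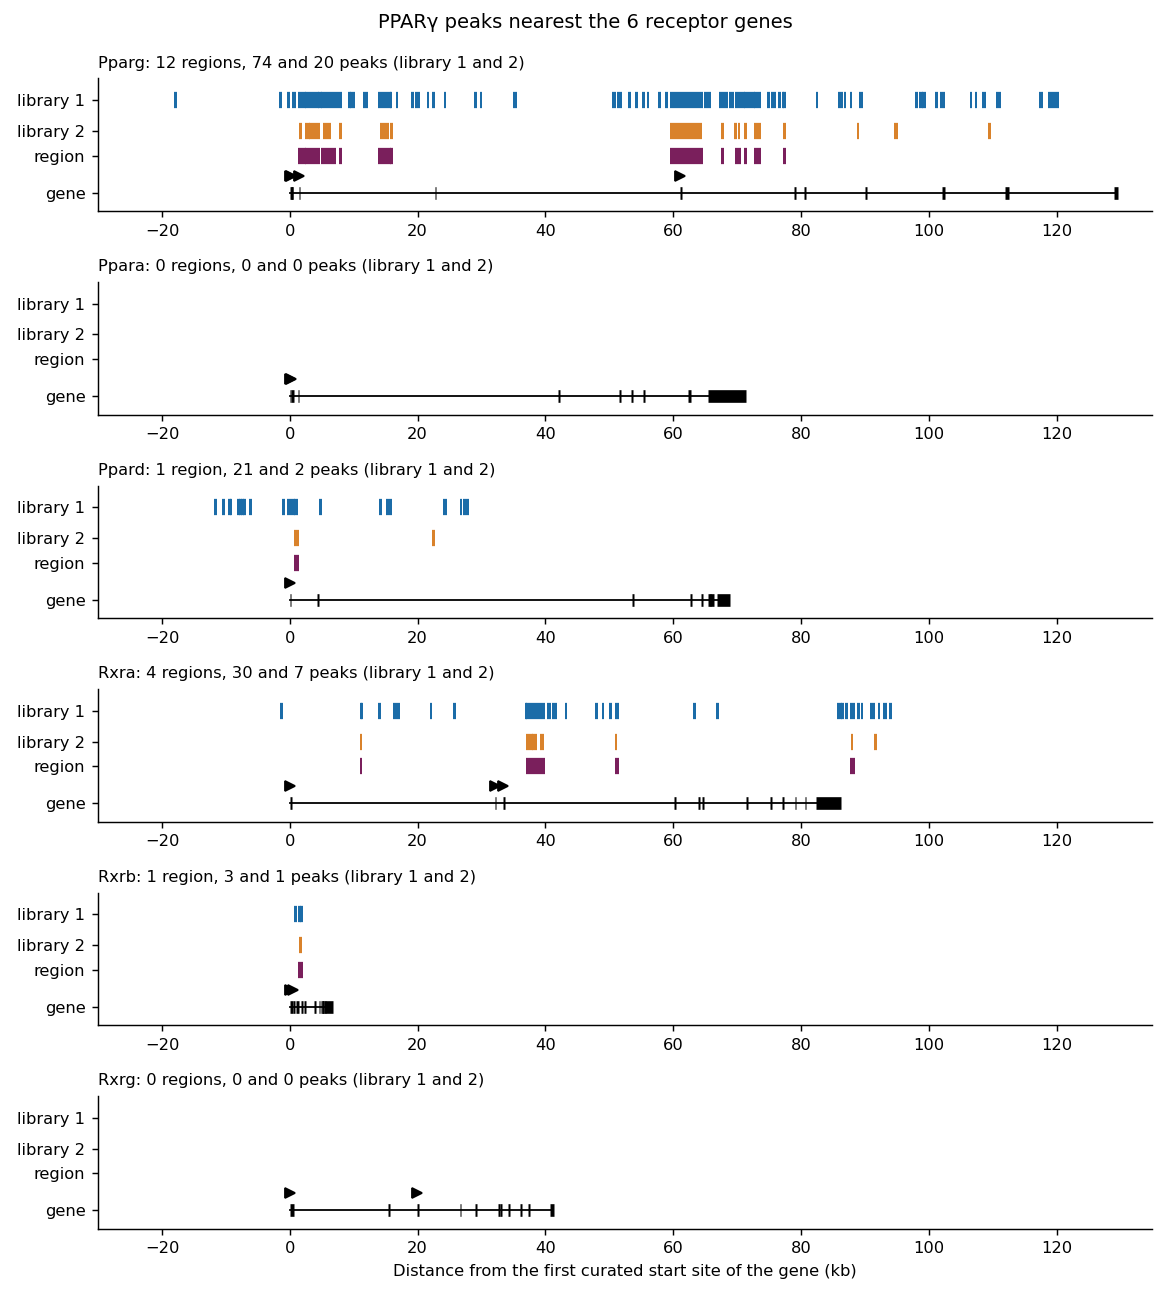
Map of the library 1 peaks (blue), library 2 peaks (orange) and regions of both (purple) nearest to each receptor gene, against distance in kb from the gene's first curated start site; the black line is the gene with its exons, arrowheads are curated start sites, and features are drawn slightly widened so that short ones show. Pparg regions lie in 2 groups at and behind its start sites, while Ppara and Rxrg hold no peak.

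Pparg was the receptor gene with the most regions, and they lay at and behind both of its promoter areas. The gene (gene ID 19016, + strand, chr6:115360951-115490401 in mm10, 129 kb) has 4 curated start sites, of which 3 lie within the first 1.40 kb and start the transcripts with the upstream exons, and the fourth, at 115422066, is the start of PPARγ2, the isoform with the longer N terminus that is known best from adipocytes. The first and second of these areas are 61.1 kb apart at their start sites. The 12 regions (3 with both libraries at a fold enrichment of 5 or more) covered 14.5 kb, and their density, over the 177 kb of genome nearer to a Pparg start than to that of any other gene, was 6.79 per 100 kb against 0.768 per 100 kb genome-wide. More regions than at Pparg were found at 193 genes, and 98.8% of genes had fewer; genes with any region had a median of 2 and a 90th percentile of 7. The upstream neighbour Timp4, an inhibitor of metalloproteinases, had no region.

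Of the 12 Pparg regions, 6 were nearest to the start at 115362349, the last of the upstream group, and 6 were nearest to the PPARγ2 start. Fold enrichment, the authors' ratio of ChIP signal to input at a peak's summit, is given here for library 1 and then library 2 in each case. Region 1 (chr6:115362201-115363246) spanned the start at 115362349 with 4.84 and 5.07, and region 2 (chr6:115363350-115365494) followed 2.07 kb downstream with 6.81 and 7.59. Region 3 (chr6:115365843-115367867), 4.51 kb downstream, had 4.80 and 6.47. All 3 had the larger value in library 2, the library with fewer peaks. Region 4 (chr6:115368698-115368922) had 3.03 and 5.35 at 6.46 kb, the most unequal pair of values in the gene. The strongest of the upstream group was region 5 (chr6:115374699-115376489), which lay 13.2 kb downstream of the start with 8.67 and 7.87. Region 6 (chr6:115376625-115376799), at 14.4 kb, had 4.74 and 4.79, and its summits fell on the same base in both libraries. All 6 were centred in introns, and the centre of the last lay 15.8 kb from the first Pparg start.

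The PPARγ2 start lay inside region 7 (chr6:115420372-115425319), the strongest and widest receptor region. Its values, 15.4 and 10.7, put its peaks within the top 1.03% of library 1 and the top 3.02% of library 2. Such percentages, here and below, are within each library's own list, of 83787 and 28535 peaks, so they share no common scale. At 4948 bp it was wider than 99.2% of regions, whose median width was 626 bp, and 160 regions were wider. It held the first exon of PPARγ2 (115422066 to 115422192), whose coding sequence begins at 115422111, and its summits were 216 bp upstream of the start in library 1 and 426 bp upstream in library 2. The signal thus peaked immediately before the start site in both libraries, although the centre of the called interval is downstream of it. The other 5 regions of this group were weaker and narrower. Region 8 (chr6:115428396-115428675) had 4.35 and 4.52 at 6.47 kb, region 9 (chr6:115430694-115431260) had 3.83 and 4.24 at 8.91 kb, and region 10 (chr6:115431995-115432247) had 4.74 and 4.24 at 10.1 kb. Region 11 (chr6:115433572-115434394) had 5.65 and 4.79 at 11.9 kb, and region 12 (chr6:115438146-115438409) had 3.55 and 4.79 at 16.2 kb. Apart from region 7, the downstream group therefore ranged from 3.55 to 5.65 in library 1 and from 4.24 to 4.79 in library 2. The medians over 6 regions were 4.82 and 5.91 in the upstream group and 4.54 and 4.66 in the downstream group.

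Between the groups, a stretch of 43.6 kb held no region. It contained 19 library 1 peaks and no library 2 peak. A further 52.0 kb from the last region to the gene end held 26 library 1 peaks and 3 library 2 peaks, one of the latter, 48.2 kb downstream of the PPARγ2 start, at 7.59 with no library 1 peak over it. The Pparg peaks totalled 74 in library 1 and 20 in library 2, the 40th and 144th largest numbers of any gene. Of these, 14 (18.9%) in library 1 and 16 (80.0%) in library 2 lay in a region, beside 26.9% and 82.9% over all peaks of those libraries. Library 1 peaks outside regions were low, with a median of 3.85 and a maximum of 6.22, and 10 of all 74 library 1 peaks had exactly the value 4.15, the median over the gene. The most upstream start, at 115360951, was not covered by a region: the closest library 1 peaks had summits 346 bp before it at 5.04 and 307 bp after the next start, 115361144, at 3.55, and neither was shared with library 2.

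Ppard, whose product is the broadly expressed PPARδ, had a single region near its promoter with unequal values in the libraries. The gene (gene ID 19015, + strand, chr17:28232754-28301469, 68.7 kb) has 1 curated start site, and its region (chr17:28233375-28233877) was centred 0.872 kb downstream of it in the first intron. Fold enrichment was 11.6 in library 1 and 5.68 in library 2, which is the top 3.25% of library 1 but only the top 32.5% of library 2. Summits were 91 bp apart. Library 1 held 20 further Ppard peaks that library 2 did not share, among them one with its summit 73 bp before the start and one 27.3 kb behind it, both at 8.0. A second library 2 peak, 22.4 kb downstream, reached 4.70 and was not shared. Of the neighbours, Def6, a guanine nucleotide exchange factor of immune cells, was nearest to 3 regions lying 14.5 to 24.4 kb before the Ppard start, the closest of them at 11.8 and 11.6, and Fance, a Fanconi anaemia gene, to 1.

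Ppara, which encodes PPARα, had no binding that these lists detected. No peak of either library was nearest to the gene (gene ID 19013, + strand, chr15:85735564-85806851, 71.3 kb) or lay in the 115 kb of genome nearer to its starts than to those of any other gene. The nearest library 1 peak had its summit 101 kb from a Ppara start, on the side of Wnt7b, at 5.04, and the nearest region lay 316 kb away and belonged to Gramd4 (7.70 and 5.07). Neither of the neighbours Wnt7b and Cdpf1 had a region. The lists hold only called peaks, so weaker signal at Ppara was not measured here.

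Rxra, the gene of the main RXR of myeloid cells, had 4 regions, after Pparg the next number among the receptor genes by nearest start. With both libraries required to reach a fold enrichment of 5, or with a reciprocal overlap of 50%, 1 of them was left, the same number as at Ppard, and by overlap with the extended gene body Rxrb also had 4. The gene (gene ID 20181, + strand, chr2:27677201-27763319, 86.1 kb) has curated starts at 27677201, 27709292 and 27710583, and 92.3% of genes had fewer regions than its 4. The strongest (region 2, chr2:27714200-27716924) lay 4.98 kb behind the last start and 38.4 kb behind the first, inside an intron, with 15.1 in library 1 and 6.71 in library 2. Its summits were 4 bp apart. At 2725 bp it was wider than 96.7% of regions, and library 2 split it into 3 peaks where library 1 had 1. As at Ppard, library 1 placed it far higher in its list (top 1.09%) than library 2 did (top 20.2%). Region 1 (chr2:27688122-27688270) had 5.63 and 4.58 at 11.0 kb behind the first start, and region 3 (chr2:27728058-27728458) had 4.15 and 3.81 at 17.7 kb behind the last. Region 4 (chr2:27764945-27765439), with 6.52 and 3.97, began 1.63 kb beyond the gene's end and was the only receptor region outside a receptor gene. No region lay at any of the 3 start sites: the summit closest to the first was a library 1 peak 1381 bp before it, at 3.26, not shared with library 2. Library 1 had 30 Rxra peaks, 4 of them in regions, and library 2 had 7, 6 of them in regions. Regions numbered 4 at the neighbour Wdr5, a subunit of histone methyltransferase complexes, and 0 at the collagen gene Col5a1.

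Rxrb is a short gene in a crowded stretch of chromosome 17, so that its count depends on how regions are given to genes. The gene (gene ID 20182, + strand, chr17:34031812-34038403, 6.59 kb) starts 0.122 kb from the start of Slc39a7, a zinc transporter gene, and only 3.99 kb of genome is nearest to its start sites. Its region (chr17:34033046-34033567) lay 0.956 kb behind the start at 34032350, in intron 2 and reaching into the next coding exon, with 5.92 in library 1 and 5.35 in library 2 and summits 212 bp apart. A second region, centred 0.528 kb before the first Rxrb start (chr17:34031161-34031407; 4.74 and 5.63), fell to Slc39a7, and 2 more within 4.46 kb fell to H2-Ke6. A library 1 peak at 7.70 (chr17:34031514-34031835) covered the first Rxrb start itself but had its summit nearer to Slc39a7. With overlap of the gene body extended by 10 kb in place of the nearest start, 4 regions rather than 1 would fall to Rxrb. Which of the adjoining genes such a region bears on cannot be told apart from positions.

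Rxrg, the RXR gene of muscle and brain, was without peaks, as Ppara was. Over the 121 kb nearest to its starts (gene ID 20183, + strand, chr1:167598362-167639623, 41.3 kb), neither library had a peak. A library 1 peak near Mgst3, 204 kb away, was the closest, and the nearest region, 247 kb away, belonged to Aldh9a1 (4.15 and 4.24). The neighbours Lrrc52 and Lmx1a had no region.

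**Figure D2:**
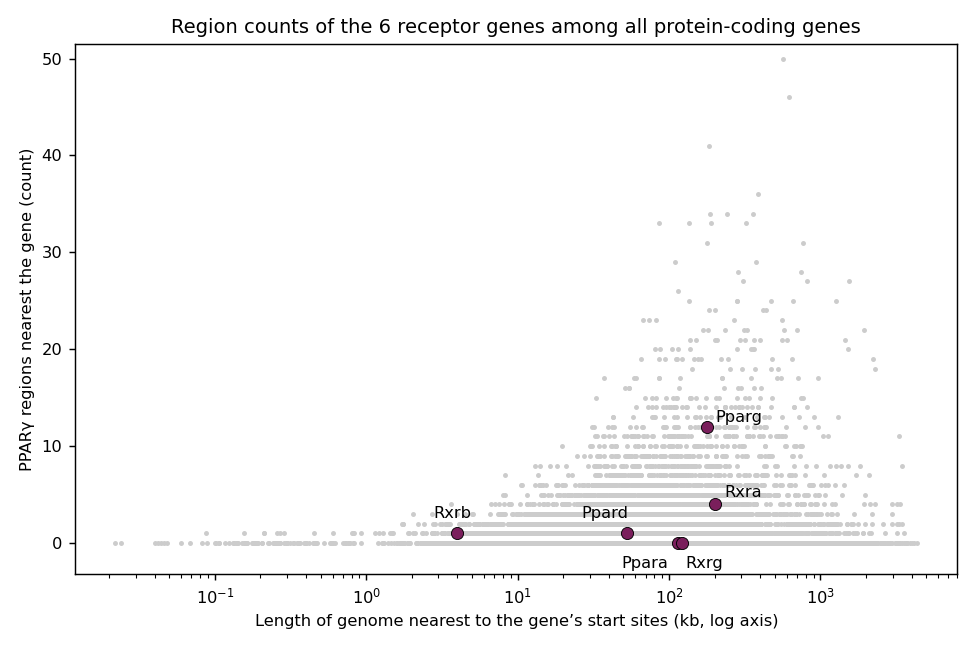
Number of regions nearest to each protein-coding gene (vertical axis) against the length of genome nearest to its start sites (kb, log axis); grey points are all genes and purple points the 6 receptor genes. Pparg stands at 12 regions and Rxra at 4 on stretches of 177 kb and 202 kb, while Ppara and Rxrg lie at 0 on 115 kb and 121 kb.

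The receptor regions had a lower median than all regions, more so in library 1 than in library 2. The median fold enrichment of the 18 was 5.23 in library 1 and 4.93 in library 2, against 6.81 and 5.35 over all regions, and 6 of the 18 reached 5 in both libraries. Library 1 gave the larger value in 10 and library 2 in 8, whereas library 1 gave the larger value in 71.8% of all regions. All 8 were Pparg regions, and every region of Ppard, Rxra and Rxrb was higher in library 1. Pparg holds 12 of the 18 regions, so the pooled values mostly describe that gene. The ratio of library 1 to library 2 had a median of 1.24 over all regions with a central 95% from 0.583 to 2.39, and 17 of the receptor regions lay within these limits. The exception was Pparg region 4, at 0.565. The ratios of the strongest Ppard and Rxra regions, 2.03 and 2.25, were near the upper limit, while that of Pparg region 7 was 1.44 and that of the Rxrb region 1.11. With 2 libraries of 1 group, these differences between values have no test.

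**Figure D3:**
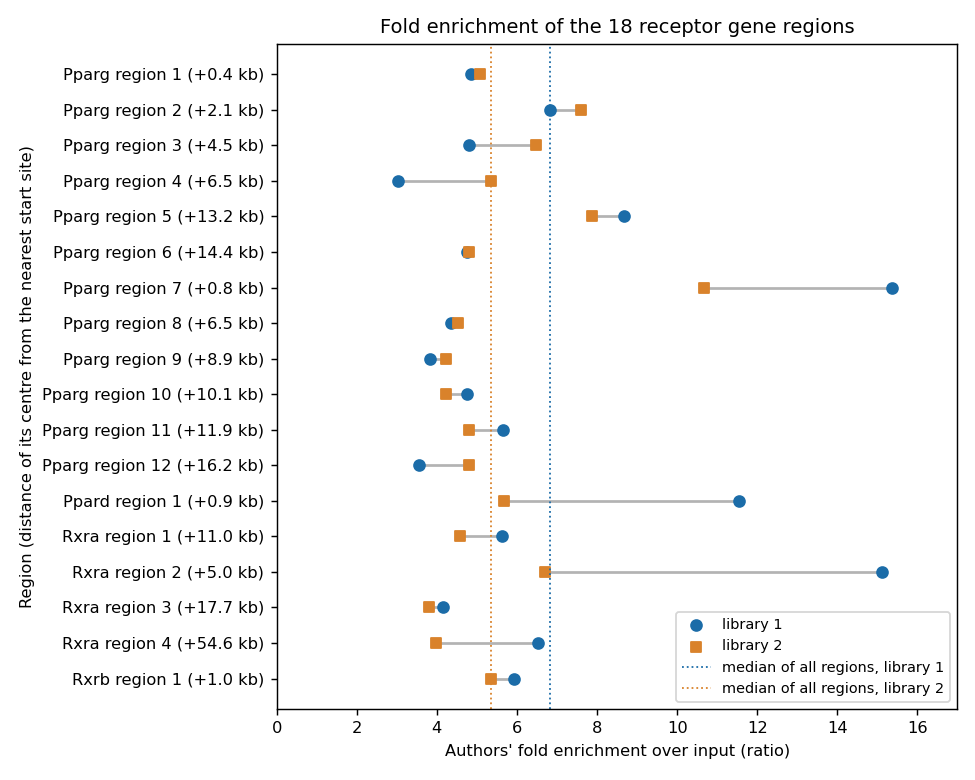
Fold enrichment over input (authors' ratio) of the 18 receptor regions in library 1 (blue circles) and library 2 (orange squares), with dotted lines at the medians of all regions, 6.81 and 5.35; labels give the distance of each region's centre from the nearest start site. Pparg region 7 is high in both libraries, whereas Ppard region 1 and Rxra region 2 are high in library 1 but 5.68 and 6.71 in library 2.

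**Figure D4:**
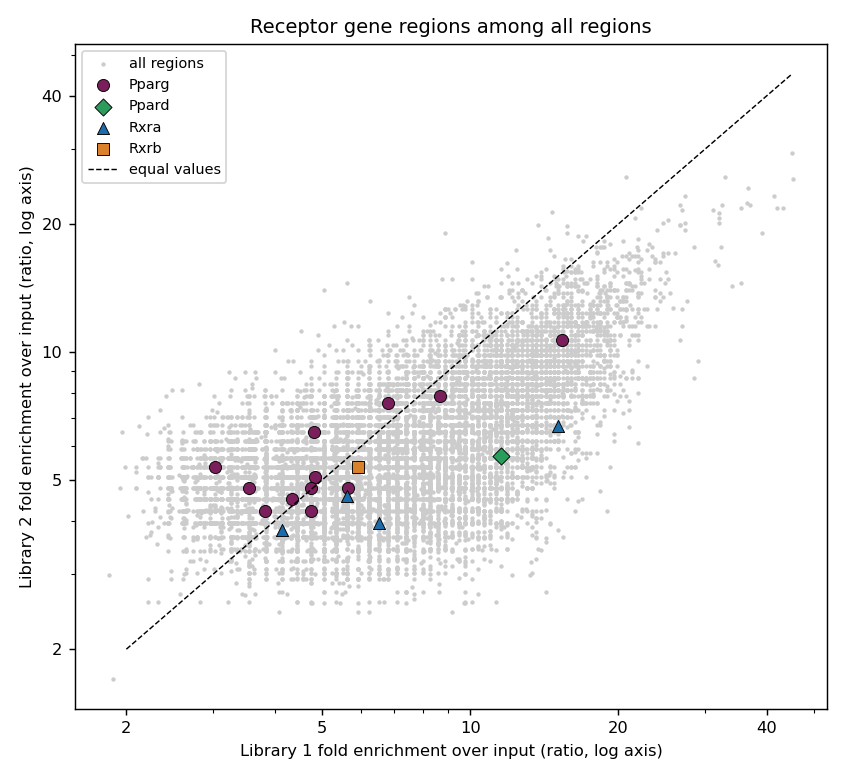
Fold enrichment in library 2 against library 1 (ratios, log axes) for all regions (grey) and for the receptor regions (coloured); the dashed line marks equal values. Pparg region 7 at 15.4 and 10.7 is the only receptor region over 10 in both libraries.

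Start sites were covered by few receptor regions, as by few regions in general. Of the 18, 2 spanned a start site (Pparg regions 1 and 7) against 15.1% of all regions, and 4 of 18 were centred within 1 kb of one against 23.9%. All 18 centres lay downstream of the nearest start, against 54.7% of all regions. In 17 of the 18 the centre was in an intron of the nearest gene, against 42.9% of all regions and 71.6% of the regions downstream of their nearest start. These shares are descriptive, since 12 of the 18 regions share 1 gene. The summits of the libraries lay a median of 91.5 bp apart in the receptor regions (0 to 1297 bp) and 93 bp apart in all regions, and 11 of 18 were within 100 bp against 52.7% of all.

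No copy of the PPAR hexamer AGGTCA, on either strand, was present in the 201-bp windows around the library 1 summits of the 18 receptor regions, whereas 14.9% of the windows of all regions held one; centred on library 2 summits, 1 window held it, at Pparg, against 15.1%, and 1 window did with 250 bp on each side, against 30.2%. DR1 allowing up to 2 mismatches was likewise in none, against 4.57% of all windows. Windows with GGGTCA, a spelling added after the sequences had been seen, numbered 5 of 18 (Pparg region 7, Ppard region 1 and Rxra regions 1, 2 and 3) against 9.92%; centred on library 2 summits they numbered 2, both at Rxra, against 10.4%. The letters TTGCNNAA of C/EBP were in 3 windows (Pparg regions 4, 7 and 12) against 15.1%, and the copy in Pparg region 7 lay 4 bp from the library 1 summit; at library 2 summits there were 5 against 14.5%. For STAT, TTCNNNGAA was in 3 (Pparg region 9, Ppard region 1 and Rxra region 2) against 7.30%. AP-1 (TGANTCA) was matched in 2 against 9.98%, at Pparg region 12 and Rxra region 1, and RUNX (TGTGGTT) in 1 against 8.02%, at Pparg region 11. GAGGAAGT, the pattern searched for PU.1, and CGTGGGAA, that for RBPJ, were in none of the 18, against 6.83% and 0.390%. Both strands were searched throughout, and a match is a description of letters only. An exact DR1 contains the hexamer, whereas a DR1 with mismatches need not.

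Over the whole 19.3 kb of the receptor regions, a search added after the summit windows had been examined, the hexamer was present 11 times in 6 regions, 0.569 per kb against 0.733 per kb over all regions. GGGTCA, also present 11 times in 6 regions, stood at 0.569 per kb against 0.521 per kb. DR1 with up to 2 mismatches occurred at 2 places, 0.103 per kb against 0.205 per kb. They are shown, on the - strand and with capitals for the letters that match the repeat, as the closest to DR1 in any receptor region.
Pparg region 7, chr6:115423924-115423936: AaGTCAaAGtTCA
Rxrb region 1, chr17:34033352-34033364: AGGgCAcAGGTCt
The Pparg match lay 1864 bp downstream of the PPARγ2 start and 2080 bp from the library 1 summit, so away from the strongest signal. The Rxrb match was 198 bp from the library 1 summit but 14 bp from the library 2 summit, and therefore falls inside the window when it is centred on library 2. No match with 1 or no mismatch was found.

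Genes that act with the receptors had regions in unequal shares. The lists were chosen with earlier results of these data known, so their shares are descriptive. The coregulators, which carry out activation or repression by the bound heterodimer, had a region in 11 of 15 genes (73.3%; 95% Wilson interval, 48.0% to 89.1%), beside the 31.6% of all genes. They were led by Tbl1xr1, a subunit of the corepressor exchange machinery, with 19, and Nrip1, a ligand-dependent corepressor, with 17 regions of which the strongest reached 18.4 and 12.3. The strongest regions of Tbl1xr1 and Nrip1 lay far from a start, at -123 kb and -157 kb (negative values are upstream). Ppargc1b, a coactivator, had 4. Crebbp, Hdac3 and Ppargc1a had none. Receptors other than PPARs that pair with RXRs had a region in 7 of 13 (53.8%; 29.1% to 76.8%), with 16 at Rara, the retinoic acid receptor α, 9 at Nr4a1, 3 at Rarb and 2 at Nr1h3, the liver X receptor α of macrophages. Nr1h2, Nr1h4 and Nr1i2 were among those without one. By nearest start, Rara thus carried more regions than any PPAR or RXR gene. Counts of the listed genes were not scaled to the length of genome nearest to each.

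The genes for factors that induce Pparg in macrophages or adipocytes had a region in 12 of 15 (80.0%; 54.8% to 93.0%). Cebpb, a bZIP factor of myeloid and fat cells, had 33, the TGF-β receptor genes Tgfbr1 and Tgfbr2 had 21 and 14, and Spi1, which encodes PU.1, had 12, the same number as Pparg. The strongest regions of Cebpb, Tgfbr1, Tgfbr2 and Spi1 lay at 87.6 kb, -37.6 kb, 6.16 kb and 1.54 kb from a start. Ebf1, Klf15 and Klf5 had none. Among genes whose products modify the PPARγ protein, 8 of 10 had a region (80.0%; 49.0% to 94.3%), among them Senp2, a SUMO protease gene, with 6, Mapk3 with 4 and Cdk5, the kinase that phosphorylates PPARγ in fat, with 1. The Cdk5 region fell to that gene by its centre, and no library 2 summit was nearest to Cdk5. Pias1 and Ppp5c had none. Genes of ligand supply and retinoid handling, at 7 of 20 (35.0%; 18.1% to 56.7%), were near the share of all genes. Within that list Dhrs3, which reduces retinal to retinol, had 24 regions with a strongest one of 21.8 and 17.6, Fabp5 and Lipa had 8 each, and Fabp4 had 5, while the retinal dehydrogenase genes Aldh1a1, Aldh1a2 and Aldh1a3 had none. The strongest regions of Dhrs3, Fabp5, Lipa and Fabp4 lay 68.4 kb, 71.6 kb, 11.0 kb and 2.06 kb downstream of a start. The partner receptor, coregulator, ligand, inducer and modifier lists, of 13, 15, 20, 15 and 10 genes, were also counted in each library by itself. Library 1 had a peak, shared with library 2 or not, at 11, 14, 12, 13 and 10 of them, beside 60.6% of all genes. Library 2 had one at 8, 12, 8, 12 and 7, beside 34.9%. The 12 of 20 ligand genes with a library 1 peak were close to the 60.6% of all genes.

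**Figure D5:**
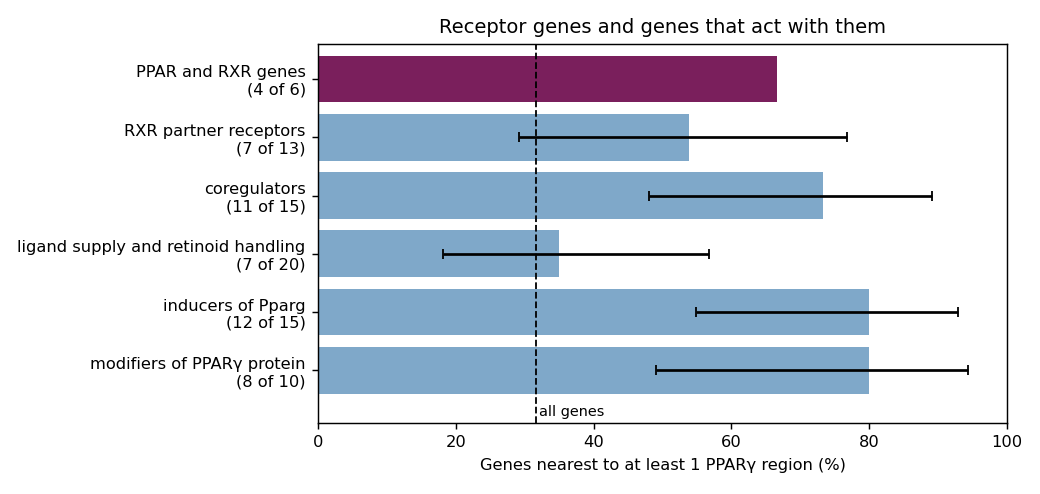
Share of genes (%) nearest to at least 1 region among the PPAR and RXR genes (purple) and among 5 lists of genes that act with them (blue); error bars are 95% Wilson intervals over genes, and the dashed line is the 31.6% of all protein-coding genes. The lists were chosen with earlier results of these data known, so the bars and intervals are descriptive. No list was tested against that line.

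Genes of AM identity, checked by regions and not by expression, had a region in 9 of 9, beside the 31.6% of all genes. Lung epithelial markers had one in 2 of 6 (33.3%), neutrophil markers in 2 of 5 (40%), endothelial markers in 1 of 4 (25%) and lymphocyte markers in 0 of 5. These marker lists, that of AM identity included, are small and were chosen with earlier results of these data known. None of them was tested against all genes. In the pattern of regions, peaks and highest fold enrichment in the libraries, the gene most like Pparg was Kmt2e, a chromatin regulator, at a Euclidean distance of 0.294 on log2 scales over these 5 measures; it had 12 regions, 67 and 20 peaks, and highest values of 18.4 and 10.7. Next were Lyn, a Src family kinase, and Adrb1, the β1 adrenergic receptor gene, at 0.416 and 0.420. Nearest to Ppard were Ehd4, Ipmk and Fam43a (0.404 to 0.688), and nearest to Rxra were Rcbtb2, Kif13b and Hbp1 (0.392 to 0.429). For Rxrb, with its 3 and 1 peaks, Bbx and Bola1 had almost the same values (0.000248), followed by Nnat at 0.0403.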

How the data were processed

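PPARγ HT-ChIPmentation libraries of sorted AMs were analysed as 1 group of 2 ChIP libraries; their inputs have no peak list used here. The submitters' notes and the paper's methods name CASAVA, bcl2fastq 2.20.0.422, cutadapt, Bowtie2 (mm10), SAMtools and MACS3; peaks were called separately for the libraries, each with its own input as control and q 0.05. The deposited lists give for each peak the fold enrichment (a linear ratio), the −log10 p-value and −log10 q-value, a score made from the latter and the summit. They carry no counts, so the depth behind a value is unknown here; fewer peaks in library 2 limit what both can share.

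Peaks overlapping by at least 1 bp were merged and regions with both libraries kept, as the study kept peaks found in 2 or more samples. Fold enrichment of a region is that of its strongest peak in each library. Curated RefSeq transcripts of GRCm38.p6 on chromosomes 1 to 19 and X gave start sites; genes on Y were left out. Wilson intervals (95%) are over genes and cover counting error only. With 1 group no test was run. Named genes were all 6 receptor genes, their neighbours, up to 4 members of each list with most regions and the 3 alphabetically first without one, and the 3 genes most like each receptor gene with a region; some of these are not reported here. Members and lists were chosen with earlier results of these data known. Merging and gene assignment were tested on simulated data. Python 3.11.15, pandas 2.3.3, numpy 2.4.6, scipy 1.17.1 and pysam 0.24.0 were used. Alternatives were stricter q, fold, overlap and summit rules, single libraries, library 1 shortened to its strongest peaks, other gene sets and assignment, and other motif windows.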

Additional observations from a re-analysis of the deposited data

How the results depend on the processing

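The 4 receptor genes with a region remained 4 in number under every alternative except a reciprocal overlap of 50% and summits at most 100 bp apart, each of which left 3 because Rxrb lost its region; Ppara and Rxrg stayed at 0 throughout. The 18 regions became 16 at a q of 0.001, 6 when both libraries had to reach a fold enrichment of 5, 8 with the reciprocal overlap, 11 with the summit rule and 12 with library 1 shortened to the length of library 2, under which Pparg went from 12 to 10, 3, 6, 7 and 7 regions and Rxra from 4 to 4, 1, 1, 3 and 3, while Rxrb went from 1 to 4 by gene body; with each library alone the count ranged from 30 to 128, and without library 2 it was 128. The share of all genes with a region was 30.2% at the stricter q, 22.7% at the fold minimum, 22.4% with the reciprocal overlap, 24.2% with the summit rule, 28.5% with the shortened list, 29.7% over genes of every type, 37.0% by gene body, and 34.9% to 60.6% with 1 library. DR1 with up to 2 mismatches, absent at library 1 summits, was found in 1 region at 250 bp each side, in 1 at library 2 summits, and in 2 over whole regions, a search added after seeing the data. The hexamer, GGGTCA and C/EBP counts at library 2 summits differed from those at library 1 summits by more than 1.5 times, and GGGTCA also fell from 5 to 2 at 50 bp each side. There STAT fell from 3 to 1, against 3.84% of all regions, and AP-1 from 2 to 1, against 5.51%. At 250 bp each side C/EBP was in 7 (27.6% of all regions), STAT in 5 (16.2%), AP-1 in 4 (18.5%) and RUNX in 2 (15.3%). The strongest fold enrichment of each occupied gene was the same under its alternatives, which only picked the strongest region or peak by another value. Ppard and Rxrb have 1 region each, so a choice among regions could not change theirs. No paired analysis was possible because no result comes from a test: only 1 group has peak lists. The number of peaks in library 2 limits every shared count, and absence from a peak list is no measurement of 0 signal.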
